A study of Homo sapiens with 16 samples.

Results

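The genes described here encode AP-1 subunits and immediate early transcription factors. They are 10 of the 59428 genes in the count table, chosen by symbol and with earlier results of these data known. Those of the FOS family are FOS, FOSB, FOSL1 and FOSL2, and those of the JUN family are JUN, JUNB and JUND. The others are the ATF family gene ATF3, the zinc finger gene EGR1 and IER2. All 10 had counts and all passed the filter on low counts in every comparison. FOSL1 did so in part of them only through the libraries where it was high. OVCAR3 is an ovarian carcinoma cell line with intact BRCA1 and UWB1.289 one with a BRCA1 mutation, and BRCA1 takes part in the repair of DNA double strand breaks. OVCAR3 was kept for 96 h with 7.5 µM olaparib, an inhibitor of PARP enzymes, and UWB1.289 for 96 h with 3.5 µM, in both cases the concentration determined as the line's IC50, or with the solvent DMSO. RNA of 4 replicates in each of the 4 groups gave 16 libraries with reads from the 3′ ends of transcripts. UWB1.289 grew in a mixture of MEGM and RPMI1640 with 3% FBS and OVCAR3 in RPMI1640 with 20% FBS and bovine insulin, so that effects of the line, its BRCA1 status, the dose and the medium cannot be told apart. Each genotype is represented by a single line, and no source used here says that the replicates were separate cultures beyond the statement that the experiment was repeated, so p-values measure the spread between these samples.

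AP-1 is a dimer of a JUN family protein with a FOS, JUN or ATF family protein, and it binds short DNA elements in the control regions of genes for proliferation, invasion and stress responses. The immediate early genes among these factors are transcribed within minutes of growth factor or stress signals, through MAP kinases and factors such as SRF and its ternary complex partners, and their RNAs are short-lived. EGR1 is a zinc finger factor of the same early response, ATF3 is a stress-induced factor that can repress or activate its targets, and FOSL1 (FRA-1) is a later member known from invasive carcinoma cells.

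All 10 are protein-coding genes in the GENCODE 44 annotation of hg38. Those of the FOS family are FOS on the forward strand at chr14:75278826-75282230, FOSB on the forward strand at chr19:45467995-45475179, FOSL1 on the reverse strand at chr11:65892049-65900573 and FOSL2 on the forward strand at chr2:28392448-28417317, and those of the JUN family are JUN on the reverse strand at chr1:58776845-58784048, JUNB on the forward strand at chr19:12791486-12793315 and JUND on the reverse strand at chr19:18279694-18281622. ATF3 is on the forward strand at chr1:212565334-212620777, EGR1 on the forward strand at chr5:138465479-138469303 and IER2 on the forward strand at chr19:13150411-13154911. JUN, JUNB and JUND have 1 exon each. Counts are per gene and do not tell isoforms apart.

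Promoter sequence shows which exact matches to such elements lie close to the start sites of the genes. Windows of 300 bases from 250 before to 50 after the start site were taken from RefSeq (GRCh38.p14). They were found for 9 of the 10 genes, with FOSL1 not matched and with 2 entries for ATF3. Motifs were searched on both strands of 35116 such windows: the AP-1 element TGACTCA, the cAMP response element TGACGTCA, the JUN and ATF element TGACATCA, the EGR1 element GCGTGGGCG, and the CArG box, to which SRF binds. EGR1 held 2 CArG boxes, at bases -105 to -96 and -83 to -74 from the start site, and 454 of all 35116 windows held at least 1. TGACATCA, present in 2.61% of windows, lay at -67 to -60 in JUN and at -123 to -116 in the first ATF3 entry. The second ATF3 entry held no match to any of the motifs. TGACTCA, present in 4.95%, lay in FOSL2 just after the start site, from base 4 to base 10. TGACGTCA, present in 1.85%, lay at -200 to -193 in JUND, and GCGTGGGCG (0.795%) was in none of the windows of these genes. The windows of FOS, FOSB, JUNB and IER2 held no match to any of the motifs. Elements outside the windows or with other letters were not searched. A match is a description of the letters and not a shown binding site. The bases before the first annotated base of EGR1 (chr5:138465229-138465478, forward), JUN (chr1:58784049-58784297, reverse) and ATF3 (chr1:212565157-212565333, forward) are printed because these genes had the clearest changes with a match, and for FOSL2 30 bases around the match (chr2:28392851-28392880, forward). Capitals mark the matched motif.
EGR1: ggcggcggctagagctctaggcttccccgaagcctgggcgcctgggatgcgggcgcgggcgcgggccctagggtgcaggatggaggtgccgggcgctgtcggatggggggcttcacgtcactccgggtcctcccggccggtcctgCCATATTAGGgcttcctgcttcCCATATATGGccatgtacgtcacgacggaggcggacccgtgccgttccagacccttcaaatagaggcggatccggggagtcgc
JUN: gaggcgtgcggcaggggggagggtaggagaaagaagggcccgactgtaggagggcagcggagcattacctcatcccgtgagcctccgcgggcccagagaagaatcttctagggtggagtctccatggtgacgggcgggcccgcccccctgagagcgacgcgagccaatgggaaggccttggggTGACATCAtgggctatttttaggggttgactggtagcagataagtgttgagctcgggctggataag
ATF3: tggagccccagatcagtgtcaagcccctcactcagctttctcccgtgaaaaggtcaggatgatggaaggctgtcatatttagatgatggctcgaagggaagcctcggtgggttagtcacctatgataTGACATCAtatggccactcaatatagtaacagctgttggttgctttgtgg
FOSL2: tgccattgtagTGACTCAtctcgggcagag

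Total counts lay between 5599571 and 7730228 per library, with no pair of the 24 within-group pairs identical. Levels below are counts normalised with the TMM method, on the scale of a library of average size, as mean ± SD with n = 4. Log2 fold changes come from edgeR's quasi-likelihood test with their standard error (SE), and adjusted p-values are Benjamini-Hochberg values over all genes tested. A gene passed the test at an adjusted p below 0.1, and it was counted as differentially expressed if it also changed by more than 1 on the log2 scale with a mean normalised count above 10. Of the 7 epithelial markers looked at, PAX8, EPCAM, MUC16 and the keratins were present in both lines, whereas WT1 stood at 784 ± 46.1 in OVCAR3 with DMSO and at 0 in all UWB1.289 libraries with DMSO. Under olaparib 5 of the 7 fell in OVCAR3, among them KRT8 by 1.05 and KRT18 by 1.02 on the log2 scale. KRT7 rose there by 0.19 (edgeR's adjusted p = 0.0948). Of all genes tested, 16% passed as lower and 15.5% as higher. In UWB1.289 KRT8 and KRT18 fell, by 0.30 and 0.40, and MUC16 rose by 0.69, where 6.10% and 7.77% of all genes passed. The summed level of the 7 markers was 25625 to 27383 in OVCAR3 with DMSO and 16017 to 17911 under olaparib, and 47743 to 51744 and 37485 to 46147 in UWB1.289. Of the 8 markers of other cell types, CD3E (T cells) and LUM (fibroblasts) were at or near 0 throughout. The other fibroblast markers were not: COL1A1 stood at 158 ± 26.8 in OVCAR3 with DMSO and 234 ± 25.1 under olaparib, and COL1A2 at 314 ± 47.7 and 153 ± 20.5 in UWB1.289. CD68 (macrophages) was at the detection floor in OVCAR3 and at 3.85 ± 1.54 and 10.7 ± 4.43 in UWB1.289 with DMSO and under olaparib. PTPRC (leukocytes), PECAM1 and CDH5 (endothelium) were at the detection floor in OVCAR3 with DMSO and at 39.8 ± 6.82, 21.8 ± 5.84 and 24.7 ± 12.1 in UWB1.289 with DMSO. The summed level of the 8 markers was 142 to 201 in OVCAR3 with DMSO, 208 to 257 under olaparib, 359 to 515 in UWB1.289 with DMSO and 268 to 331 under olaparib. The part of either sum in the results was not tested.

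In OVCAR3, olaparib raised FOSL1, ATF3 and JUNB and lowered EGR1, FOS, JUN and IER2. These 3 genes are set against 15.5% of the 13031 genes tested that passed as higher, and the 4 lower ones against 16%. FOSL1 and ATF3 were differentially expressed as higher (2.90% of all genes), and EGR1 and FOS as lower (2.33%). FOSL2, FOSB and JUND did not pass. In RNA from whole cultures, a lower level in each cell and fewer cells that express a gene cannot be told apart.

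In UWB1.289, olaparib raised ATF3, FOSL2, JUN, FOSL1 and JUNB, 5 of 10 genes, where 7.77% of the 12748 genes tested passed as higher. EGR1 was the one that fell, where 6.10% passed as lower. ATF3 was differentially expressed as higher (1.93% of all genes) and EGR1 as lower (0.282%). FOS, FOSB, IER2 and JUND did not pass.

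**Figure D1:**
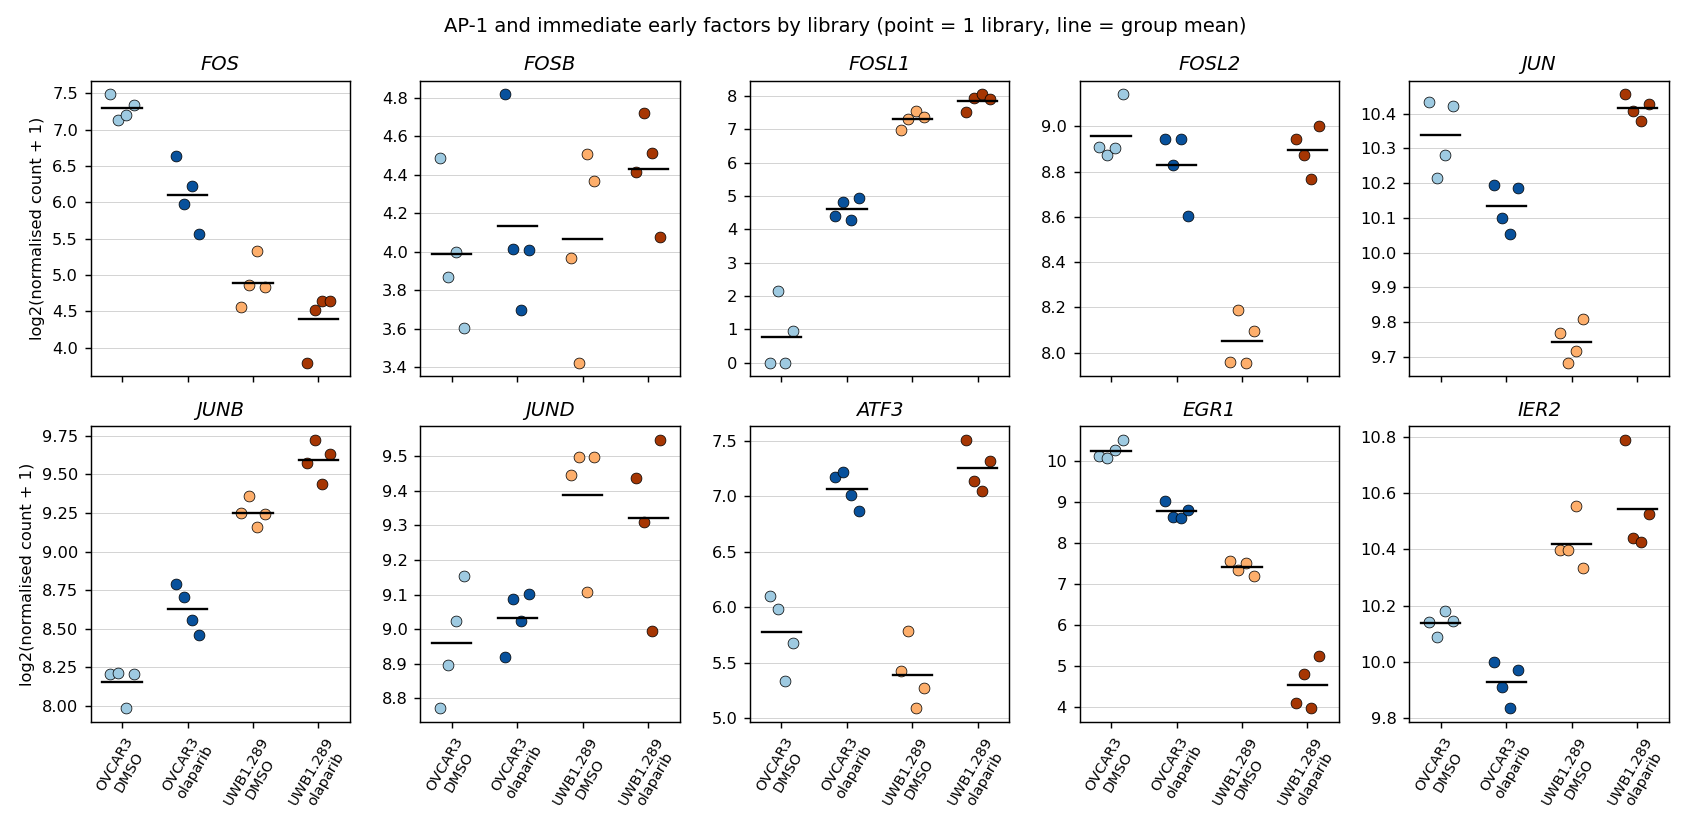
Level of each of the 10 genes in the 16 libraries as log2(normalised count + 1), with 1 point per library, the group mean as a line and a separate vertical scale for each gene. EGR1 is lower and ATF3 higher with olaparib in both lines, FOSL1 rises from near 0 in OVCAR3, and JUN and FOSL2 rise in UWB1.289.

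EGR1 was the gene of these 10 with the largest fall in both lines. In OVCAR3 its normalised counts were 1105, 1076, 1223 and 1452 with DMSO and 519, 396, 386 and 446 with olaparib. All olaparib libraries lay below all DMSO libraries. The log2 fold change was -1.47 (SE 0.107, edgeR's adjusted p = 3.98e-09), a 2.78-fold decrease. In UWB1.289 the counts were 187, 160, 181 and 145 with DMSO and 16.1, 26.5, 14.6 and 36.7 with olaparib, again with no overlap. The 7.08-fold decrease (log2 fold change -2.82, SE 0.211, edgeR's adjusted p = 1.73e-09) was the lowest value of the 12748 genes in this fit. It rests on 14 to 37 raw counts per olaparib library. The order of the group means, OVCAR3 with DMSO (1214 ± 171), OVCAR3 with olaparib (436 ± 60.9), UWB1.289 with DMSO (168 ± 19.4) and UWB1.289 with olaparib (23.5 ± 10.3), had no overlap between neighbours.

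FOS, the first-described AP-1 partner of JUN, followed the same order of groups at lower counts. With DMSO the OVCAR3 libraries held 178, 140, 146 and 161 normalised counts, and with olaparib they held 98.7, 61.7, 73.8 and 46.2. The groups did not overlap, and the log2 fold change was -1.16 (SE 0.180, edgeR's adjusted p = 7.54e-05). Without OVCAR3 olaparib replicate 4 it was -0.997, just short of the fold limit, with the adjusted p still below 0.1. In UWB1.289 the counts were 22.5, 28.1, 39.3 and 27.4 with DMSO and 12.8, 21.9, 23.9 and 23.8 with olaparib. These groups overlapped, and the change of -0.50 on the log2 scale (SE 0.286) did not pass (edgeR's adjusted p = 0.319).

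FOSB, a close relative of FOS, had 9 to 27 raw counts in every library. Its group means were 15.3, 17.4, 16.4 and 20.9 for OVCAR3 with DMSO and olaparib and UWB1.289 with DMSO and olaparib, and all groups overlapped. Neither effect passed, with a log2 change of 0.18 in OVCAR3 (SE 0.345, edgeR's adjusted p = 0.751). In UWB1.289 it was 0.33 (SE 0.318, edgeR's adjusted p = 0.583). FOSB overlaps ERCC1 on the opposite strand, and the use of strand in counting is not given in the sources used here.

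FOSL1 was at the detection floor in OVCAR3 with DMSO and above it with olaparib. Its normalised counts were 0, 3.40, 0 and 0.930 with DMSO, from 0 to 3 raw counts, and 20.1, 27.3, 18.5 and 29.3 with olaparib. Set against a floor of 3 raw counts per library this is an at least 7.79-fold increase, for counting error only. The fitted value of 4.40 on the log2 scale (SE 0.575, edgeR's adjusted p = 1.08e-05) was the 4th highest of 13031, but its size depends on how the near-zero group is treated. The gene passed the filter on low counts in OVCAR3 only through the olaparib libraries. Its call and rank there are therefore not independent of that filter. In UWB1.289 the gene was already at 124, 158, 184 and 163 with DMSO and reached 182, 242, 262 and 236 with olaparib. The lowest olaparib library lay just below the highest DMSO library, and the log2 fold change was 0.56 (SE 0.136, edgeR's adjusted p = 0.0102).

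FOSL2 (FRA-2), the other FOS-related gene, moved with olaparib in UWB1.289. Its counts there were 248, 291, 247 and 273 with DMSO and 491, 468, 435 and 512 with olaparib. The groups did not overlap, and the log2 fold change was 0.85 (SE 0.0975, edgeR's adjusted p = 1.97e-06), a 1.80-fold increase. In OVCAR3 the counts were 479, 467, 479 and 563 with DMSO and 492, 454, 492 and 388 with olaparib. These overlapped, and the log2 fold change was -0.12 (SE 0.0957, edgeR's adjusted p = 0.390). The gene overlaps 2 lncRNA genes, FOSL2-AS1 on the opposite strand and another on its own.

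JUN, the core DNA-binding partner of AP-1, passed the test in opposite directions in the lines. In UWB1.289 it rose from 871, 821, 840 and 895 with DMSO to 1403, 1356, 1330 and 1377 with olaparib. The groups lay far apart relative to their spread, and the log2 change was 0.67 (SE 0.0753, edgeR's adjusted p = 1.31e-06), a 1.60-fold increase. In OVCAR3 the counts were 1383, 1188, 1243 and 1370 with DMSO and 1172, 1096, 1062 and 1164 with olaparib. The groups did not overlap, although the gap between them was small, and the log2 fold change was -0.20 (SE 0.0763, edgeR's adjusted p = 0.0587). This call in OVCAR3 was lost in 5 of 13 alternatives, with adjusted p-values up to 0.178. Those were no filter on low counts and leaving out DMSO replicate 1, DMSO replicate 4, olaparib replicate 2 or olaparib replicate 3.

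JUNB, which binds DNA with FOS proteins and can dampen JUN, rose modestly in both lines. In OVCAR3 its counts were 295, 296, 252 and 295 with DMSO and 441, 416, 376 and 351 with olaparib. In UWB1.289 they were 608, 655, 570 and 606 with DMSO and 760, 844, 693 and 794 with olaparib. Neither pair of groups overlapped. The log2 change was 0.48 in OVCAR3 (SE 0.0997, edgeR's adjusted p = 0.00138). It was 0.34 in UWB1.289 (SE 0.0871, edgeR's adjusted p = 0.0136). The gene overlaps HOOK2 on the opposite strand.

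JUND, the JUN family member that many resting cells express, showed no change that could be told from the spread. Its counts ranged from 436 to 569 and from 484 to 548 in OVCAR3 with DMSO and olaparib, and from 550 to 722 and from 510 to 747 in UWB1.289. The log2 fold changes were 0.07 (SE 0.0915, edgeR's adjusted p = 0.638) and -0.06 (SE 0.111, edgeR's adjusted p = 0.809).

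ATF3 rose in both lines. In OVCAR3 the counts were 67.5, 62.4, 39.4 and 50.2 with DMSO and 143, 148, 128 and 115 with olaparib. In UWB1.289 they were 42.0, 54.1, 33.1 and 37.6 with DMSO and 181, 140, 131 and 159 with olaparib. Every olaparib library of both lines lay above every DMSO library of both lines. The increase was 2.45-fold in OVCAR3 (log2 fold change 1.3, SE 0.170, edgeR's adjusted p = 1.12e-05). In UWB1.289 it was 3.67-fold (log2 fold change 1.88, SE 0.171, edgeR's adjusted p = 4.66e-08). In UWB1.289 this was the 71st highest of the 12748 values.

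IER2, an immediate early nuclear protein gene, stood between 913 and 1769 normalised counts in every library. In OVCAR3 it went from 1128, 1087, 1160 and 1132 with DMSO to 1022, 962, 913 and 1003 with olaparib, without overlap. The log2 fold change was -0.21 (SE 0.0723, edgeR's adjusted p = 0.0437). The call was lost without the filter on low counts and without DMSO replicate 3, olaparib replicate 2 or olaparib replicate 3, with adjusted p-values up to 0.157. In UWB1.289 the groups overlapped, at 1290 to 1503 with DMSO and 1375 to 1769 under olaparib, and the log2 fold change was 0.13 (SE 0.0874, edgeR's adjusted p = 0.396). The gene overlaps 2 lncRNA genes on the opposite strand.

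**Figure D2:**
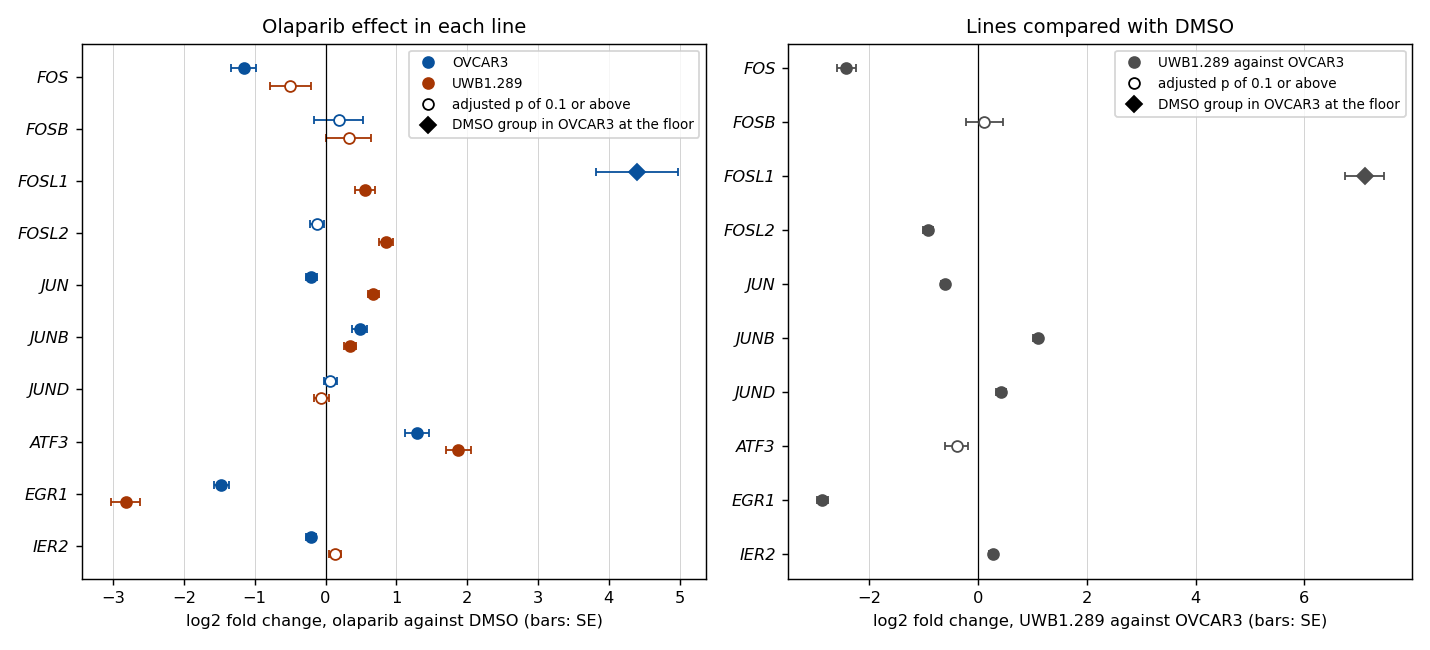
Log2 fold changes with SE bars for the 10 genes, on the left olaparib against DMSO in each line and on the right UWB1.289 against OVCAR3 with DMSO. Open symbols did not pass the test and diamonds mark FOSL1 where the OVCAR3 DMSO group was at the floor. EGR1 lies furthest to the left in both panels and FOSL1 furthest to the right except for olaparib in UWB1.289, where ATF3 does.

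Of the 10 genes, 7 had olaparib and DMSO groups without overlap in OVCAR3 and 5 had them in UWB1.289. Over all genes tested this share was 25.7% in OVCAR3 and 14.7% in UWB1.289.

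Whether a gene answered to olaparib differently in the lines was tested as an interaction over all 16 libraries. JUN (log2 difference 0.88, SE 0.103, edgeR's adjusted p = 7.37e-07), FOSL2 (0.97, SE 0.137, edgeR's adjusted p = 1.44e-05) and IER2 (0.34, SE 0.114, edgeR's adjusted p = 0.0686) were shifted upwards in UWB1.289 relative to OVCAR3. Among the 14243 genes tested 5.09% passed in this direction. IER2 lost its call in 11 of 20 alternatives, with an adjusted p of up to 0.213, among them the fit without UWB1.289 olaparib replicate 1, the library with its highest count. EGR1 fell further in UWB1.289, by 1.35 (log2 difference -1.35, SE 0.240, edgeR's adjusted p = 0.000348), and FOSL1 had the smaller increase there (-3.84, SE 0.546, edgeR's adjusted p = 1.61e-05), where 5.83% of genes passed. The FOSL1 difference rests on the near-zero DMSO group of OVCAR3. EGR1 and FOSL1 also passed the limits for differential expression, as did 1.66% of genes in that direction, and none of the 10 did upwards, where 2% of genes did. For ATF3 the difference of 0.59 (SE 0.249, edgeR's adjusted p = 0.165) did not pass, but it did without UWB1.289 DMSO replicate 2 (adjusted p = 0.0923) or OVCAR3 DMSO replicate 3 (adjusted p = 0.0849). FOS, with a difference of 0.66 (SE 0.332, edgeR's adjusted p = 0.253), JUNB (-0.13), JUND (-0.13) and FOSB (0.15) did not pass either.

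Without olaparib the lines differed in 8 of the 10 genes, in a comparison that uses the same DMSO libraries as those above. FOSL1, JUNB, JUND and IER2 were higher in UWB1.289, where 39.8% of 13366 genes passed as higher, and EGR1, FOS, FOSL2 and JUN were lower, where 40.1% passed as lower. The share of these genes that passed was therefore near that of all genes. FOSL1 and JUNB were differentially expressed as higher (18.7% of genes), and EGR1 and FOS as lower (19.7%).

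For FOSL1 the level in UWB1.289 (157 ± 24.8) was at least 51.4-fold higher than in OVCAR3, where it was at the floor. The gene passed the filter on low counts in this comparison only through the UWB1.289 libraries. JUNB was 2.14-fold higher (log2 difference 1.10, SE 0.0874, edgeR's adjusted p = 1.76e-12). EGR1 was 7.25-fold lower (log2 difference -2.86, SE 0.104, edgeR's adjusted p = 1.08e-20) and FOS 5.34-fold lower (-2.42, SE 0.177, edgeR's adjusted p = 2.61e-13). The other differences were smaller, with JUND at 0.42, IER2 at 0.28, FOSL2 at -0.91 and JUN at -0.60. FOSB (0.12, edgeR's adjusted p = 0.762) and ATF3 (-0.39, edgeR's adjusted p = 0.103) did not pass, although ATF3 passed in 4 of 13 alternatives, which were all 16 libraries in the fit, the replicate block and leaving out UWB1.289 DMSO replicate 2 or OVCAR3 DMSO replicate 3. In 7 of the 10 genes the lines did not overlap, against 69.4% of all genes.

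**Figure D3:**
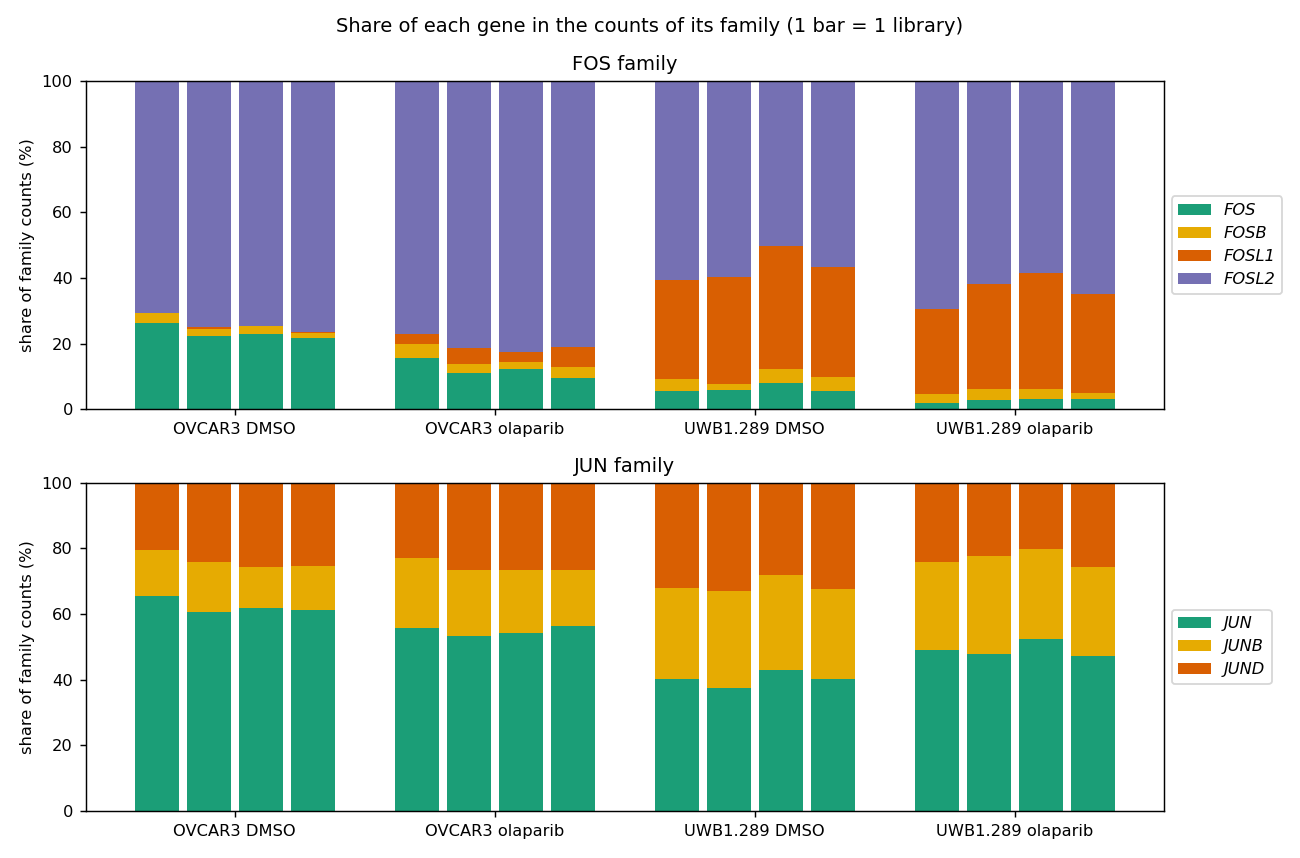
Share of each gene in the summed raw counts of the FOS family (top) and of the JUN family (bottom), in percent, with 1 bar per library. FOSL1 takes 30.3% to 37.4% of the FOS family counts in UWB1.289 with DMSO and at most 0.545% in OVCAR3 with DMSO.

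The makeup of the 2 dimer-forming families is given by their shares. FOSL2 held the largest FOS family share in every group. It had 74.2% ± 2.52 and 80.5% ± 2.36 in OVCAR3 with DMSO and olaparib, and 56.8% ± 4.72 and 63.7% ± 4.69 in UWB1.289. Reads came from the 3′ ends, so a count does not scale with transcript length, and shares are of counts and not of protein. In OVCAR3, FOS made up 23.3% ± 1.98 of the FOS family counts with DMSO and 12.1% ± 2.49 with olaparib, and the libraries did not overlap. In UWB1.289 the share of FOS was 6.23% ± 1.17 with DMSO and 2.74% ± 0.629 with olaparib. FOSL1 held 33.5% ± 2.97 of the family in UWB1.289 with DMSO and 30.8% ± 3.98 with olaparib, and in OVCAR3 0.168% ± 0.259 and 4.32% ± 1.46. Within the JUN family, the share of JUN went from 62.3% ± 2.15 to 55.0% ± 1.43 in OVCAR3 and that of JUNB from 13.7% ± 1.11 to 19.4% ± 1.75, with no overlap in either. In UWB1.289 the share of JUN went from 40.1% ± 2.25 to 49.2% ± 2.37, and that of JUND from 31.4% ± 2.22 to 23.1% ± 2.38. The family totals behind these shares were 419 to 793 counts per library for FOS and 1727 to 2937 for JUN. In UWB1.289 the FOS family total was 419 to 564 with DMSO and 657 to 793 with olaparib. That of the JUN family was 1895 to 2598 and 2435 to 2937. A share also depends on its family total, and the levels of FOS and JUND did not pass in UWB1.289.

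Other genes of the same families moved in part with them. This list and those below were written with earlier results of these data known, so their counts are a description. Of 7 tested further AP-1 family genes in OVCAR3, 3 rose, among them MAFF, and 2 fell, where 15.5% of all genes tested rose and 16% fell. Their median log2 fold change was -0.01, as over all genes, but 0.38 under DESeq2. In UWB1.289, 6 of 9 rose, among them BATF2 and MAFF, and none fell, against 7.77% and 6.10% of all genes. Their median was 0.41 against -0.00436 over all genes, and 0.72 under DESeq2. MAFF, a small MAF protein, had a log2 increase of 1.56 in OVCAR3 (SE 0.184, edgeR's adjusted p = 3.22e-06). Its rise in UWB1.289 was 0.92 (SE 0.141, edgeR's adjusted p = 0.000118). BATF2, a partner of JUN proteins that interferon induces, rose in UWB1.289 from 2.76 ± 3.01 to 22.1 ± 4.45 (log2 fold change 2.97, SE 0.518, edgeR's adjusted p = 0.000499). With 0 to 7 raw counts under DMSO, it passed the filter on low counts only through the olaparib libraries. Its place in the count for UWB1.289 is therefore not independent of that filter, and it was not tested in OVCAR3.

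Among other immediate early genes, a list also written with earlier results known, most calls were upwards. In OVCAR3, 9 of 14 tested genes rose and none fell, against 15.5% and 16% of all genes, with a median log2 fold change of 0.58 against -0.01 over all genes. In UWB1.289, 7 of 12 rose and 1 fell, against 7.77% and 6.10% of all genes, with a median of 0.58 against -0.00436. IER3, an early survival gene, rose from 747 ± 152 to 4013 ± 683 in OVCAR3 (log2 change 2.43, SE 0.131, edgeR's adjusted p = 1.22e-10). Its increase in UWB1.289 was 0.58 (SE 0.0919, edgeR's adjusted p = 0.000169), and the difference passed (-1.85, edgeR's adjusted p = 8.74e-09). BTG2, an antiproliferative p53 target, was the one that fell in UWB1.289 (-1.05, SE 0.363, edgeR's adjusted p = 0.0730), with overlapping groups, and it rose by 0.63 in OVCAR3 (SE 0.222, edgeR's adjusted p = 0.0444). The call of BTG2 in UWB1.289 was lost under DESeq2 and without any 1 of DMSO replicates 1, 2 and 3 and olaparib replicates 3 and 4. EGR2, EGR3 and EGR4, the relatives of EGR1, had too few counts to be tested in either line.

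Counts among the known upstream genes were small. Of 16 MAP kinase cascade genes, 3 rose in OVCAR3, among them MAP2K2 by 0.33, a share near the 15.5% of all genes, and none passed in UWB1.289, where 7.77% of all genes rose and 6.10% fell. Of SRF, the ternary complex factors and the EGR co-repressors, 6 genes, 2 rose (ELK3 and ELK4) and 1 fell (NAB1) in OVCAR3 and none passed in UWB1.289. Over all genes tested in OVCAR3, 15.5% rose and 16% fell. The call of ELK3 was lost under DESeq2 and without the filter on low counts. SRF itself had log2 fold changes of -0.13 and -0.15, neither past the test. Of 6 heat shock genes, which mark protein stress, 2 rose in OVCAR3 (HSPH1 and HSPB1, by 0.36 and 0.23), against 15.5% of all genes, and none passed in UWB1.289. These are counts of RNA and do not show kinase activity.

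Most of the known AP-1 target genes tested rose in both lines. The list was written with earlier results of these data known, so setting its counts against all genes is not an independent comparison. In OVCAR3, 12 of 14 tested genes rose and none fell, against 15.5% and 16% of all genes, with a median log2 fold change of 1.12 against -0.01. The largest were the chemokine gene CXCL8, from 7.65 ± 3.70 to 144 ± 29.0 normalised counts (log2 fold change 4.23, SE 0.260, edgeR's adjusted p = 4.64e-10), and the adhesion receptor gene CD44, from 10.5 ± 2.24 to 85.6 ± 12.4 (3.03, SE 0.235, edgeR's adjusted p = 1.08e-08). The urokinase gene PLAU (2.46, SE 0.372, edgeR's adjusted p = 5.47e-05), with overlapping groups, and the EGFR ligand gene AREG (2.45, SE 0.148, edgeR's adjusted p = 4.12e-10) followed. With DMSO in OVCAR3, CXCL8 had 4 to 11 raw counts and CD44 8 to 11. Both passed the filter on low counts there only through the olaparib libraries. In UWB1.289, 8 of 13 rose and CCND1 fell by 0.26, against 7.77% and 6.10% of all genes, with a median of 0.61. HBEGF (1.32, SE 0.127, edgeR's adjusted p = 1.30e-07) and CXCL8 (1.32, SE 0.125, edgeR's adjusted p = 9.86e-08) were among those that rose. In the interaction 8 of 15 had the lower log2 fold change in UWB1.289, against 5.83% of all genes, and 1, HBEGF, the higher, a call lost under DESeq2, with its size factors and without the filter on low counts. With DMSO, 13 of these 15 genes were higher in UWB1.289, against 39.8% of all genes, with a median log2 difference of 3.11, and MMP9 and MMP10 were lower. Many of these genes also answer to NFkB and other factors, and no part of AP-1 in their change was tested.

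**Figure D4:**
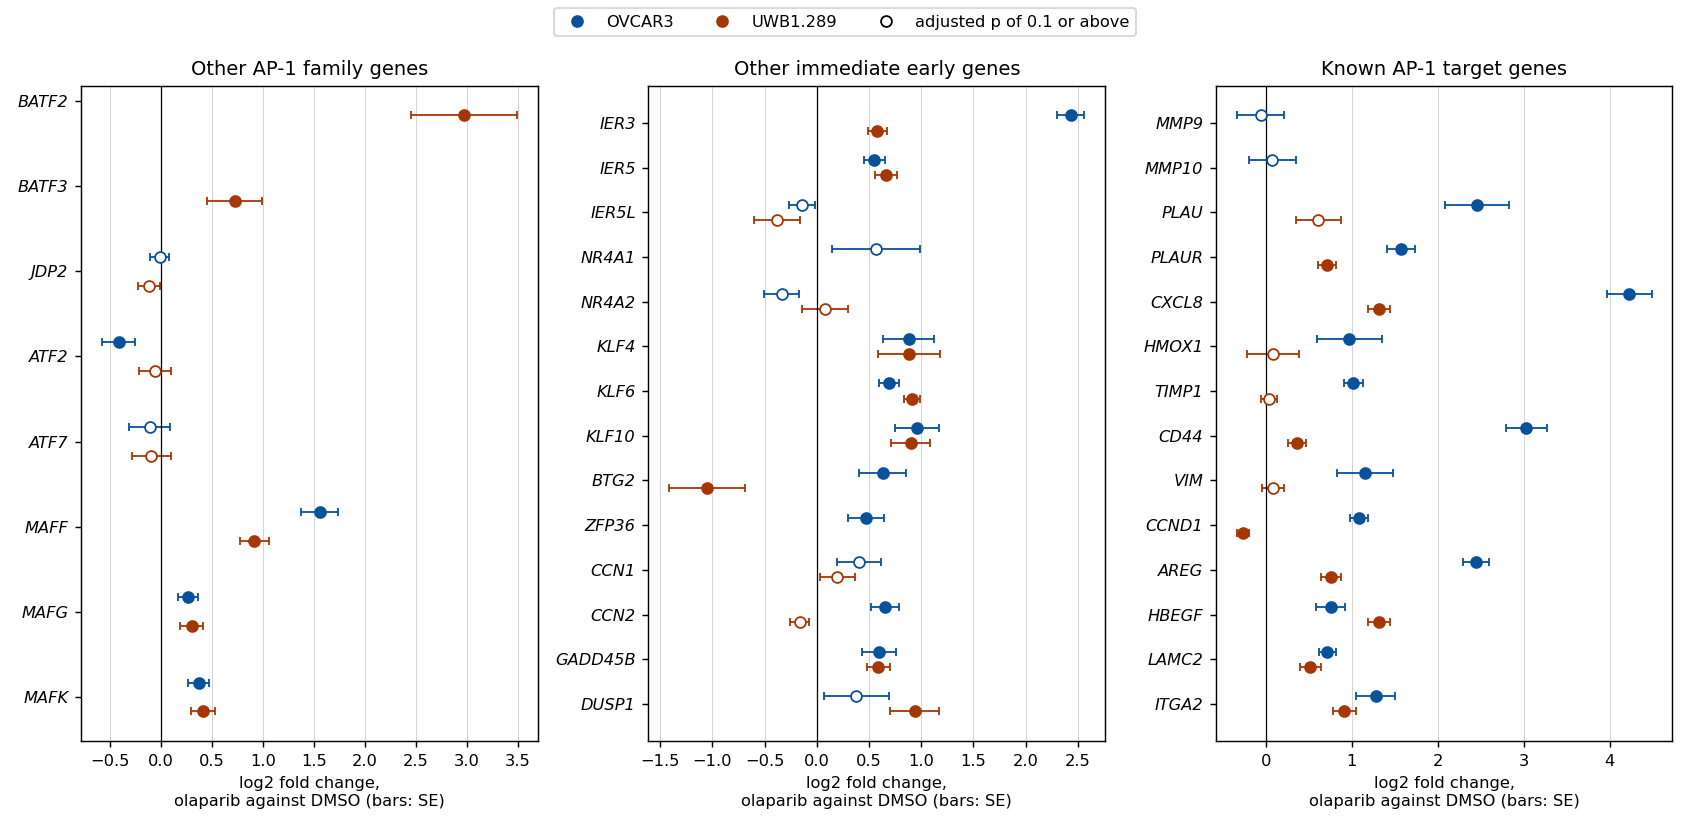
Log2 fold change of olaparib against DMSO with SE bars for tested genes from the lists of other AP-1 family, other immediate early and known AP-1 target genes, in OVCAR3 and UWB1.289. Open circles did not pass the test. CXCL8 and CD44 lie above 3 in OVCAR3, and CCND1 passes in opposite directions in the lines. BTG2 does so too, with its call in UWB1.289 lost under DESeq2 and on leaving out single libraries.

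The genes most like each factor were taken by Pearson's r of log2 CPM (counts scaled to library size) over the 16 libraries after subtracting each line's mean, among 13234 genes. The points share libraries and treatment groups, and the values are a description. For JUN they were OAS1 (0.954), SAMD9 (0.931) and EPSTI1 (0.928), and for FOSL2 DDX60 (0.963), OAS1 (0.945) and IFI44L (0.943), all of them genes that interferon is known to induce. For ATF3 they were SPSB1 (0.967), OAS3 (0.957) and HELZ2 (0.953). For FOSL1 they were CLDN1 (0.970), MAP4K4 (0.963) and SERPINE2 (0.962), and for JUNB TNFAIP2 (0.942), CXCL1 (0.933) and PDGFB (0.924). EGR1 was followed by SPON1 (0.920), NUCKS1 (0.919) and KLHL14 (0.916), and FOS by ALG10B (0.912), AFG3L2 (0.911) and FAAH2 (0.910). IER2 (0.863 for EPN3), JUND (0.826 for OTUD7B) and FOSB (0.822 for TYW1) had looser neighbours. By Spearman's rho in place of r, all 3 neighbours of FOS were the same, and for ATF3 and EGR1 none was. Among the 10 genes themselves, r was 0.912 for JUN with FOSL2, 0.895 for ATF3 with JUNB and -0.932 for ATF3 with EGR1.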

How the data were processed

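The authors built QuantSeq 3′ mRNA libraries, removed adapters with BBDuk, used STAR 2.7.9a for alignment to hg38 and obtained gene counts with featureCounts 2.0.0 and GENCODE 38. The deposited values are raw counts, 59428 genes by 16 libraries. Strand and multi-mapping settings are not given in the sources used here. Depth was 5599571 to 7730228 counts, so genes near 10 counts carry a large counting error.

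The test was the quasi-likelihood F test of edgeR 4.0.16 in R 4.3.3 (TMM, filterByExpr, Benjamini-Hochberg over all genes), each line on its own, the DMSO libraries between lines, and the interaction over all 16. SE is the log2 fold change over the square root of F. A group was at the floor if none of its libraries had over 3 counts. Log2 CPM used a prior count of 2. Scripts were tested on simulated data. Alternatives were DESeq2 1.42.0, its size factors, no filter, an adjusted p below 0.05, all 16 libraries, a replicate block, leaving out each library and, for log2 CPM, 0.5 as prior count.

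The genes and lists were chosen with earlier results of these data known. All 10 genes are named, and from each list the differentially expressed genes, at most 4 by size per comparison. Other list genes were named after their values were seen. Gene positions and overlaps come from GENCODE 44, promoters from RefSeq. Results for some genes are not reported here.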

Additional observations from a re-analysis of the deposited data

Results flagged for a closer look

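Single libraries stood apart from the rest of their group in 4 of 40 combinations of gene and group, where chance gives about 1 in 20. On the log2 CPM scale, FOS was at 1.20 in UWB1.289 olaparib replicate 1 against 1.88 or more in the others. FOSL2 was at 6.45 in OVCAR3 DMSO replicate 4 against 6.18 to 6.21. JUNB was at 5.30 in OVCAR3 DMSO replicate 3 against 5.52 in the others. JUND was at 6.41 in UWB1.289 DMSO replicate 3 against 6.75 to 6.80.

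The olaparib effect differed between the lines in the edgeR interaction test for 5 of the 10 genes, given as the UWB1.289 effect minus the OVCAR3 effect on the log2 scale. Over the 14243 genes tested, 5.09% passed as higher and 5.83% as lower. The difference was -3.84 for FOSL1, -1.35 for EGR1, 0.97 for FOSL2, 0.88 for JUN and 0.34 for IER2. The call of IER2 was kept in only 9 of 20 alternatives.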

How the results depend on the processing

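The number of the 10 genes that passed the test ranged over the alternatives from 5 to 7 in OVCAR3, stayed at 6 in UWB1.289, and ranged from 8 to 9 between the lines and from 4 to 5 in the interaction. The number differentially expressed ranged from 3 to 4 in OVCAR3 and from 2 to 3 in the interaction, and stayed at 2 in UWB1.289 and at 4 between the lines. Over the single genes, 558 of 590 values kept their direction and side of the threshold, 20 lost the call, 6 gained it and 6 changed sign without passing. Leaving out 1 library turned the sign of FOSB in OVCAR3 (from -0.109 to 0.383), of JUND in UWB1.289 (from -0.144 to 0.0386), of FOSB between the lines (from -0.0202 to 0.311) and of FOSB in the interaction (from -0.055 to 0.437). With a prior count of 0.5 the difference of mean log2 CPM of FOSL1 went from 3.17 to 4.46 for olaparib in OVCAR3. Under DESeq2 the lower count of the other AP-1 family in OVCAR3 went from 2 to 1 and its median from -0.01 to 0.38, with more genes tested. In UWB1.289 the median of the same list was 0.72 under DESeq2 and 0.71 with low-count genes kept, and that of the AP-1 targets 0.75 and 0.74. With DMSO the median line difference of the AP-1 targets was 2.43 under DESeq2 and 2.44 with them kept.

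The replicate numbers were not taken as pairs in the main tests. Same-numbered libraries correlated weakly, by 0.0227 to 0.0931 in OVCAR3 and 0.0815 to 0.122 in UWB1.289 over 13234 genes. Different-numbered libraries correlated by -0.130 to 0.0780 in OVCAR3 and -0.111 to 0.0608 in UWB1.289. In UWB1.289 every same-number value thus lay above every other, so a pairing by number is possible there. Over 7487 genes with a mean count above 100, a limit chosen after seeing the data, the same-number values were 0.0431 to 0.175 and 0.159 to 0.281. In UWB1.289, 8 of 8 libraries correlated best with their own number over the larger set, and in OVCAR3 6 of 8 did. Over the smaller set 6 of 8 did in UWB1.289 and 5 of 8 in OVCAR3. With the replicate block 7, 6, 9 and 5 of the 10 genes passed in OVCAR3, in UWB1.289, between the lines and in the interaction. The added call was ATF3 between the lines (adjusted p = 0.0960), and no other call changed.

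Depth limits FOSB, FOS and EGR1 in UWB1.289 and FOSL1 in OVCAR3, each with at least 1 group mean under 40 normalised counts.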
